A study of Mus musculus with 6 samples.

Results

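Galectins are lectins that bind β-galactosides on glycoproteins and glycolipids, and Lgals3bp encodes a secreted glycoprotein to which galectin-3 binds. The transcripts of 6 galectin genes (Lgals1, Lgals3, Lgals4, Lgals7, Lgals8 and Lgals9) and of Lgals3bp were followed in mouse melanoma cell lines, 7 of the 23951 genes in the deposited table. The set was chosen by earlier values of these libraries, because Lgals7 was higher and Lgals3 lower in the metastatic lines than in B16-F1. The differences of these 2 genes between lines are therefore given as a description and were not tested.

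B16-F1 is a line of the C57BL/6 mouse melanoma B16 with low metastatic potential, obtained from a cell repository. B16-F1R2 comes from a lymph node metastasis, and B16-F1R2L from a lung metastasis that itself arose from a lymph node metastasis; both came from 1 other laboratory. Each of the 3 lines was measured in 2 libraries of polyadenylated RNA, all untreated and grown in the same medium with 10% serum. Nothing in the labels ties the 2 libraries of each line to separate cultures, so the p-values measure only the spread between these libraries, which may be technical. Each condition is a single line, so line, origin and supplier cannot be told apart. Levels are given in FPKM, fragments per kilobase of a transcript and 1000000 mapped reads.

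Prototype galectins (galectin-1 and galectin-7) have a single carbohydrate recognition domain and form dimers. Galectin-3, the chimera type, joins such a domain to a long flexible tail through which it assembles into lattices on branched N-glycans. The tandem-repeat galectins (galectin-4, galectin-8 and galectin-9) carry a pair of different domains on 1 chain. In melanoma, galectin-1 and galectin-3 are known for roles in adhesion, spread and the immune response. Galectin-7 is known mainly from stratified epithelia.

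The FPKM of a library summed to between 596657 and 672794, and between 10617 and 11168 genes reached 1 FPKM. Depth was estimated from the lowest values as 12500000 to 14000000 reads per library. Libraries of the same line differed by a median of 0.067 to 0.095 on the log2 scale. All 7 melanocyte markers reached 1 FPKM in these lines, with sums of 14970 and 15007 FPKM in B16-F1, 7909 and 8125 FPKM in B16-F1R2, and 8924 and 8933 FPKM in B16-F1R2L. Every marker fell from B16-F1 to B16-F1R2, though by differing amounts. In B16-F1R2L every marker except Mitf was also below its B16-F1 level, while Mitf was above it. Tyr, which encodes tyrosinase, was at 192 and 186 FPKM in B16-F1, 14.7 and 14.2 FPKM in B16-F1R2, and 22.4 and 25.1 FPKM in B16-F1R2L. Mitf, the melanocyte transcription factor, was at 92.3 and 88.7 FPKM in B16-F1, 79.5 and 83.6 FPKM in B16-F1R2, and 112 and 127 FPKM in B16-F1R2L. In bulk RNA, fewer cells of a type and less RNA per cell cannot be told apart.

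Lgals7 is a gene of 4 exons on chr7:29648872-29651303 (NCBIM37, plus strand). It stood at 0.235 FPKM in replicate 1 of B16-F1 and was listed at 0 in replicate 2, at 154 and 132 FPKM in B16-F1R2, and at 142 and 138 FPKM in B16-F1R2L. Both B16-F1 libraries were thus near the limit of detection, while the 4 libraries of the metastatic lines were high and lay within the same range. Since 1 read of Lgals7 was worth about 0.0949 to 0.106 FPKM, the level in B16-F1 corresponded to an estimated 2.4 and 0 reads, against 1380 to 1591 in the other lines. Among all genes of a library, Lgals7 ranked between 645 and 728 in the 4 libraries of the metastatic lines, counted from the highest.

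On the scale log2(FPKM + 0.1), the difference of Lgals7 was 9.60 for B16-F1R2 against B16-F1, 9.58 for B16-F1R2L against B16-F1, and -0.02 for B16-F1R2L against B16-F1R2. The size of the first 2 differences depended on the pseudocount, because 1 library was listed at 0. It was 7.01 and 6.99 with a pseudocount of 1, and 11.49 and 11.47 with 0.01. The tested filter of at least 1 FPKM in at least 2 libraries was met by Lgals7 through the B16-F1R2 and B16-F1R2L libraries only.

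Lgals3 has 6 exons in its longest transcript on chr14:47987426-48005835 (NCBIM37, plus strand). Its level was 60.1 and 63.0 FPKM in B16-F1, 0.170 and 0.267 FPKM in B16-F1R2, and 0.511 and 0.803 FPKM in B16-F1R2L. The lines did not overlap. Lgals3 was high in B16-F1, near the limit of detection in B16-F1R2, and slightly above that in B16-F1R2L. With 1 read worth 0.0504 to 0.0565 FPKM, these values stood for an estimated 1158 and 1115 reads in B16-F1, 3.3 and 5.3 reads in B16-F1R2, and 10.0 and 15.9 reads in B16-F1R2L. The difference on the log2(FPKM + 0.1) scale was -7.61 for B16-F1R2 and -6.37 for B16-F1R2L against B16-F1. For B16-F1R2L against B16-F1R2 it was 1.24, and 0.44 with a pseudocount of 1. Lgals3 met the filter through the B16-F1 libraries only.

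**Figure D1:**
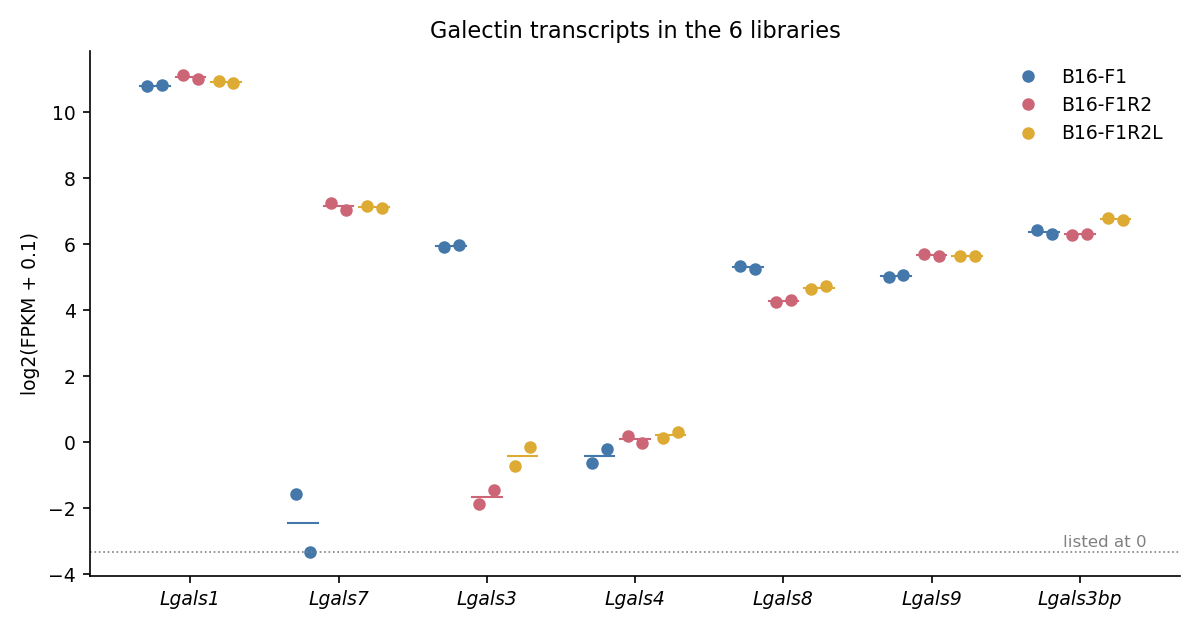
Level of each gene in each library as log2(FPKM + 0.1), with 1 point per library, a short line at the mean of a line's 2 libraries, and a dotted line at the value of a gene listed at 0. Lgals7 lies at or near the dotted line in B16-F1 and near Lgals3bp in the other lines, Lgals3 shows the opposite order, and Lgals1 is the highest in all 6 libraries.

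The regions upstream of Lgals7 and Lgals3 are shown because these transcripts change from near the limit of detection to abundant, and that of Lgals9 because its level is compared with interferon-stimulated genes below. The sequences are from RefSeq on GRCm38.p6, a later build than that of the gene positions above, and 6 of the 7 genes had an entry. Each run holds the 250 bases before the annotated start, 5′ to 3′ on the gene's strand, and the start these cells use was not measured. The motifs searched, on both strands, were the TATA box TATAAA and the GC box GGGCGG as well as the AP-1 motif TGANTCA and the interferon-response motif, which is GAAA followed by any 2 bases and a second GAAA. Capitals mark the matches, and no 2 matches overlap.
Lgals7 (chr7:28864136-28864385, plus strand): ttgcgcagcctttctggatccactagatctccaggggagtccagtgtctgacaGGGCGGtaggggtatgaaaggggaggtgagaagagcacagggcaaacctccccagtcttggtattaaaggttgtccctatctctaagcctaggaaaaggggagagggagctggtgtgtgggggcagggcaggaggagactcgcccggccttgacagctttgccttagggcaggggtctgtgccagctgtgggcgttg
Lgals3 (chr14:47373610-47373859, plus strand): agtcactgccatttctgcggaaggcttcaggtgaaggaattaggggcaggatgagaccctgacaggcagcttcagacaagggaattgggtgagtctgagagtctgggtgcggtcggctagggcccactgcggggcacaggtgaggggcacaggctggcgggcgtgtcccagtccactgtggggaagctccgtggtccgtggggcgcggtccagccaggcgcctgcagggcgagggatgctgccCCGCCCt
Lgals9 (chr11:78984925-78985174, minus strand): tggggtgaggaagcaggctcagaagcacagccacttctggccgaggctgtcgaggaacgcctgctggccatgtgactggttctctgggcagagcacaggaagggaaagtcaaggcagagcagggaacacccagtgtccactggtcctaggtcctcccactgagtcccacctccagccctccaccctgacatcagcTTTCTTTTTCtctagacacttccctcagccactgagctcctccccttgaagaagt
The GC box began 197 bases before the start of Lgals7 and, on the other strand, 7 bases before that of Lgals3. The interferon-response motif stood 55 bases before the start of Lgals9, on the other strand. Lgals4, Lgals8 and Lgals3bp held none of the 4 motifs in this window. Of 32851 promoters of the same length, 32.74% held the GC box, 12.37% the TATA box, 6.75% the AP-1 motif and 2.98% the interferon-response motif. The Lgals3 window held 13 CG dinucleotides, that of Lgals7 5 and that of Lgals9 3, against a median of 6 over all promoters. These matches describe the letters of the windows and were not tested for binding.

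Lgals1, the other prototype galectin, is on chr15:78757155-78760895 (NCBIM37, plus strand) with 4 exons. It reached 1792 and 1805 FPKM in B16-F1, 2264 and 2072 FPKM in B16-F1R2, and 1994 and 1901 FPKM in B16-F1R2L, and ranked between 34 and 53 among all genes of a library. It was high in every library, lowest in B16-F1 and highest in B16-F1R2, with no overlap between lines. The mean in B16-F1R2 was 1.21 times that in B16-F1, a log2 difference of 0.27 (SE 0.066, adjusted p = 0.0137). This call was lost when replicate 1 (adjusted p = 0.107) or replicate 2 (adjusted p = 0.097) of B16-F1 was left out. B16-F1R2L differed from B16-F1 by 0.11 (SE 0.066, adjusted p = 0.182) and from B16-F1R2 by -0.15 (SE 0.066, adjusted p = 0.138). Scaling each library to the same FPKM sum moved the former to 0.22 with an adjusted p of 0.002.

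Among the tandem-repeat galectins, Lgals8, whose product marks damaged endosomes and lysosomes for autophagy, was the one that fell in the metastatic lines. The gene lies on chr13:12531682-12557211 (NCBIM37, minus strand). Its level was 40.5 and 38.4 FPKM in B16-F1, 18.8 and 19.7 FPKM in B16-F1R2, and 25.0 and 26.3 FPKM in B16-F1R2L. The 3 lines were fully separated, with B16-F1R2L between the others. The mean of 19.3 ± 0.626 FPKM in B16-F1R2 (SD, n = 2) was 0.489 of the 39.5 ± 1.52 FPKM in B16-F1 (SD, n = 2). The log2 difference was -1.03 in B16-F1R2 (SE 0.055, adjusted p = 2.65e-05) and -0.62 in B16-F1R2L (SE 0.055, adjusted p = 0.000203) against B16-F1. Lgals8 rose again by 0.41 from B16-F1R2 to B16-F1R2L (SE 0.055, adjusted p = 0.00814), a call that was lost without replicate 1 of B16-F1R2 (adjusted p = 0.0554).

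Lgals9, which encodes an immune regulatory galectin induced by interferon in many cells, is on chr11:78776476-78798448 (NCBIM37, minus strand). It was measured at 32.3 and 33.8 FPKM in B16-F1, 51.7 and 49.97 FPKM in B16-F1R2, and 50.3 FPKM in both libraries of B16-F1R2L. Both metastatic lines were above B16-F1, and they overlapped with each other. Lgals9 rose by 0.62 on the log2 scale in B16-F1R2 (SE 0.045, adjusted p = 8.59e-05) and by 0.61 in B16-F1R2L (SE 0.045, adjusted p = 9.38e-05). B16-F1R2L and B16-F1R2 differed by -0.02 (SE 0.045, adjusted p = 0.834).

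Lgals4, a galectin of the digestive tract, was near the filter in every library. The gene lies on chr7:29618813-29626722 (NCBIM37, plus strand) and is the tested gene next to Lgals7 on its upstream side. It stood at 0.541 and 0.766 FPKM in B16-F1, 1.04 and 0.885 FPKM in B16-F1R2, and 1.00 and 1.13 FPKM in B16-F1R2L. B16-F1 was the lowest and the metastatic lines overlapped. Lgals4 met the filter through 3 libraries of the metastatic lines alone, so its rise in B16-F1R2L by 0.65 (SE 0.224, adjusted p = 0.0463) was one that the filter favoured. That call was lost when replicate 1 of B16-F1 (adjusted p = 0.169), either library of B16-F1R2 (0.0642 and 0.0617) or either library of B16-F1R2L (0.0839 and 0.159) was left out, and under quantile normalization the direction turned, with a difference of -0.07. In B16-F1R2 the difference from B16-F1 was 0.51 (SE 0.224, adjusted p = 0.0968), and between the metastatic lines it was 0.14 (SE 0.224, adjusted p = 0.688). The related gene Lgals6 was listed at up to 0.496 FPKM and at values below 1 read. No stretch of the Lgals4 transcript of at least 50 bases had a copy of at least 96% identity elsewhere in the genome. The search left out matches at or next to the gene's own position, so it could not show a copy there. Whether reads of Lgals4 were divided with Lgals6 was not tested.

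Lgals3bp, on chr11:118254065-118263406 (NCBIM37, minus strand), encodes the galectin-3 ligand and stayed abundant where Lgals3 was nearly absent. Its level was 85.9 and 79.9 FPKM in B16-F1, 78.4 and 80.1 FPKM in B16-F1R2, and 111 and 107 FPKM in B16-F1R2L. B16-F1R2L stood above the other lines, which overlapped. Against B16-F1 the log2 difference was -0.06 in B16-F1R2 (SE 0.049, adjusted p = 0.312), and Lgals3bp rose by 0.40 in B16-F1R2L (SE 0.049, adjusted p = 0.000802). It also exceeded the B16-F1R2 level, by 0.46 (SE 0.049, adjusted p = 0.00427).

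**Figure D2:**
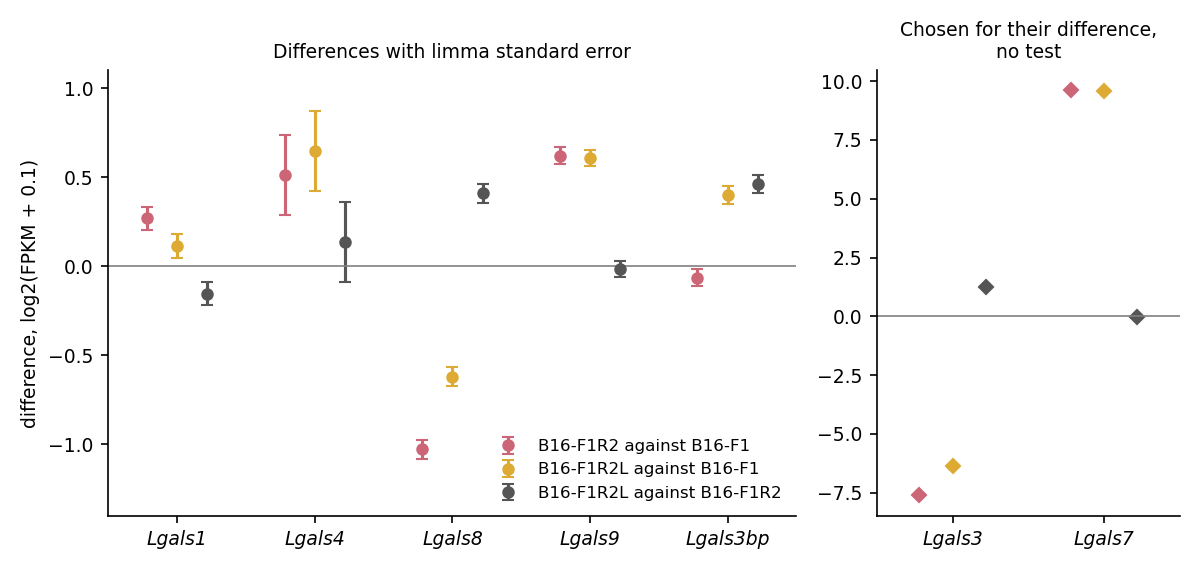
Differences between lines in log2(FPKM + 0.1) for the 5 genes tested (left, circles with limma standard errors) and for Lgals3 and Lgals7 (right, diamonds, no test), with 1 color for each of the 3 comparisons. Lgals8 is the lowest point on the left at -1.03, Lgals9 lies near 0.6 in both comparisons with B16-F1, and the right panel spans -7.61 to 9.60.

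Of the 5 genes tested, Lgals1 and Lgals9 were higher and Lgals8 lower in B16-F1R2 against B16-F1, where 28.2% of the 11379 genes tested were called higher and 27.2% lower. In B16-F1R2L against B16-F1, Lgals9 and Lgals3bp were higher and Lgals8 lower, beside 29.5% and 27.1% of all genes. Lgals4 was called higher there too, but it met the filter only through the metastatic lines and its call was lost under most alternatives, so it is not counted. Between B16-F1R2L and B16-F1R2, Lgals8 and Lgals3bp were higher and Lgals1, Lgals4 and Lgals9 did not pass, beside 12.1% called higher and 10.5% lower. With calls so common, these counts are no result about galectins. Of all calls, 52.1% and 53.7% were in the higher direction in the 2 comparisons with B16-F1R2L, and 66.6% and 81.0% when each library was scaled to the same FPKM sum, which moved the median of all genes to 0.12 and 0.13. On that scale the small differences of Lgals7 and Lgals9 between the metastatic lines turned to 0.09 and 0.09.

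The composition of the galectin transcripts differed between the lines. Of the summed FPKM of the 6 galectins, Lgals1 held 93.1% and 93.0% in the libraries of B16-F1, 90.9% and 91.1% in those of B16-F1R2, and 90.1% and 89.8% in those of B16-F1R2L. The sum itself was 1926 and 1941 FPKM in B16-F1, 2489 and 2274 FPKM in B16-F1R2, and 2212 and 2118 FPKM in B16-F1R2L. Galectin transcripts made up 0.296% of all FPKM in both B16-F1 libraries and 0.355% to 0.370% in the 4 libraries of the metastatic lines, which did not overlap with B16-F1.

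Leaving Lgals1 aside, the rest summed to 134 and 136 FPKM in B16-F1, 225 and 203 FPKM in B16-F1R2, and 219 and 217 FPKM in B16-F1R2L. Lgals3 made up 45.0% and 46.3% of this remainder in B16-F1, and at most 0.370% in the other lines. Lgals7 held 63.8% to 68.2% of it in the metastatic lines. The share of Lgals9 stayed between 22.9% and 24.9% in all 6 libraries, while that of Lgals8 dropped from 28.2% to 30.3% in B16-F1 to between 8.36% and 12.1% in the others. These shares follow in part from the choice of Lgals3 and Lgals7 and were not tested.

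**Figure D3:**
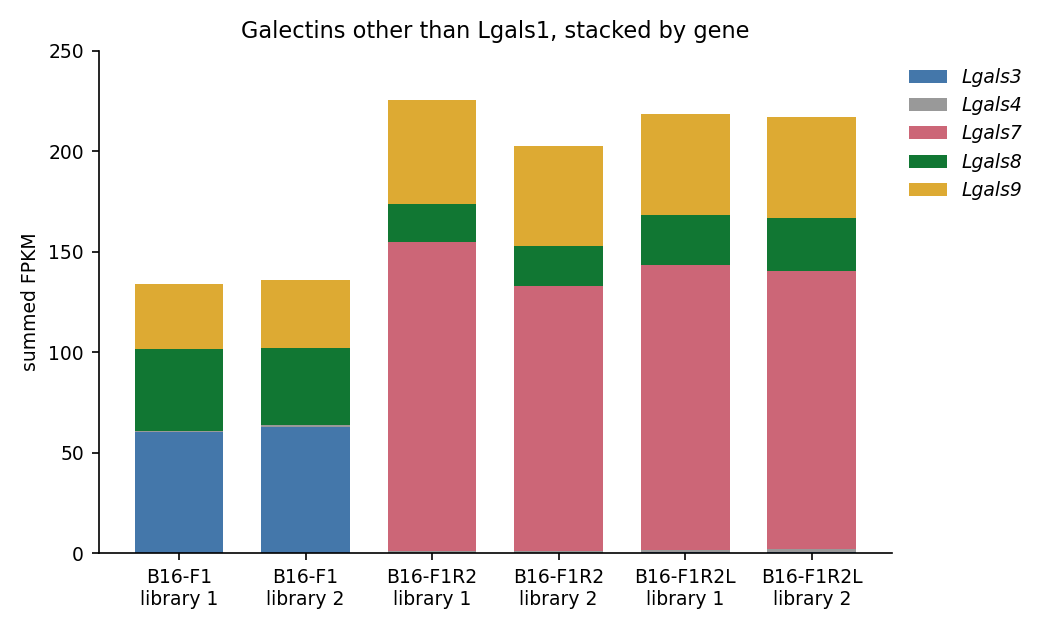
Summed FPKM of the galectins other than Lgals1 in each library, stacked by gene. The B16-F1 bars (134 and 136 FPKM) consist of Lgals3, Lgals8 and Lgals9, and the bars of the other lines (203 to 225 FPKM) mostly of Lgals7 with Lgals9 and Lgals8.

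Within B16-F1, both libraries gave the order Lgals1, Lgals3bp, Lgals3, Lgals8, Lgals9, Lgals4 and Lgals7, from high to low in FPKM. The 4 libraries of the metastatic lines shared another order, with Lgals1 followed by Lgals7, Lgals3bp, Lgals9, Lgals8, Lgals4 and Lgals3. No neighbours in these orders overlapped between the 2 libraries of a line. Of the other galectin genes in the table, Lgals2, Lgals6 and Lgals12 stayed under 0.5 FPKM in every library and were not tested. Lgalsl, which encodes a galectin-like protein, was measured at 12.5 and 12.8 FPKM in B16-F1, 10.2 and 10.0 FPKM in B16-F1R2, and 11.8 and 12.1 FPKM in B16-F1R2L. It was lower in B16-F1R2 than B16-F1 by a log2 difference of -0.32 (SE 0.055, adjusted p = 0.00312).

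Markers of other cell types in which galectins are expressed were measured beside these levels. Of 13 keratinocyte markers, Krt5, Krt1, Krt10, Krt15, Trp63 and Ivl were at 0 in all libraries, 2 (Sfn and Perp) reached 1 FPKM, and the sum, mostly Sfn, was 3.29 and 3.57 FPKM in B16-F1, 2.49 and 2.84 FPKM in B16-F1R2, and 2.67 and 2.21 FPKM in B16-F1R2L. Of 9 macrophage markers in the table, Ptprc, Emr1, Itgam and Fcgr1 were at 0 throughout, 2 (Cd68 and Lyz2) reached 1 FPKM, and the sum was 1.53 and 2.73 FPKM in B16-F1 against 1.94 to 4.35 FPKM in the others. Fibroblast markers summed to 1.14 and 1.33 FPKM in B16-F1, 22.3 and 23.1 FPKM in B16-F1R2, and 10.9 and 9.83 FPKM in B16-F1R2L, with 3 of 8 (Col1a1, Col1a2 and Pdgfrb) reaching 1 FPKM and Dcn, Lum and Thy1 at 0. Lymphocyte markers summed to 0.0204 and 0.0806 FPKM in B16-F1 and to 12.5 to 17.1 in the others, through Cd79a alone of 7, with Cd3e, Ms4a1 and Ptprc at 0. Endothelial markers summed to 1.75 and 1.78 FPKM in B16-F1, 2.66 and 3.05 FPKM in B16-F1R2, and 3.96 and 4.54 FPKM in B16-F1R2L, with 3 of 7 (Pecam1, Vwf and Prox1) reaching 1 FPKM and Cdh5, Kdr, Tek and Lyve1 at 0. The part of any of these marker lists in the galectin differences was not tested.

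The genes whose profile over the 6 libraries was nearest to that of Lgals3, by Euclidean distance after centring each log2 profile, were Isyna1 (0.645), Cyba (0.849), Dkk3 (1.05), Ubqln2 (1.51) and Pet2 (1.78). Isyna1, which encodes an enzyme of inositol synthesis, was at 36.9 and 40.5 FPKM in B16-F1, at 0.125 and 0.176 FPKM in B16-F1R2, and at 0.480 and 0.406 FPKM in B16-F1R2L. Like Lgals3, it was slightly higher in B16-F1R2L than in B16-F1R2. Nearest to Lgals7 were Clu (1.92), Mrap (2.22), Fxyd1 (2.26), Lrmp (2.35) and As3mt (2.62). Clu, which encodes the secreted chaperone clusterin, was measured at 0.137 and 0.143 FPKM in B16-F1, 70.0 and 75.4 FPKM in B16-F1R2, and 89.9 and 86.4 FPKM in B16-F1R2L. Mrap, Fxyd1, Lrmp and As3mt were listed at 0 in the libraries of B16-F1. These are likenesses of profile that the choice of Lgals3 and Lgals7 brings with it, and were not tested.

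The chromosomal surroundings of both genes were described in B16-F1R2 against B16-F1. Of the 10 tested genes nearest to Lgals3, 5 on each side within chr14:47502529-49686328, Gch1 met the filter through the metastatic lines only and is given as a description, with a log2 difference of 2.87. The other 9 were all higher, beside 28.2% of all genes, with a median log2 difference of 0.60 and a range from 0.30 (Atg14) to 1.21 (Ktn1). None of these 9 was lower, as Lgals3 was. Of the 10 tested genes nearest to Lgals7, within chr7:29543270-29941253, Lgals4 and Capn12 met the filter through the metastatic lines only and are not counted. Of the other 8, Nfkbib, Ech1 and Map4k1 were higher and the rest did not pass, beside 28.2% of all genes called higher. With so few genes, and the nearest tested gene on each side not counted, this count cannot describe the locus. Capn12, a calpain protease gene and the nearest tested gene downstream of Lgals7, was at 0.107 and 0.112 FPKM in B16-F1, 1.96 and 2.13 FPKM in B16-F1R2, and 2.33 and 2.04 FPKM in B16-F1R2L, a log2 difference of 3.36. This difference is given as a description, with no call, because of the filter.

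**Figure D4:**
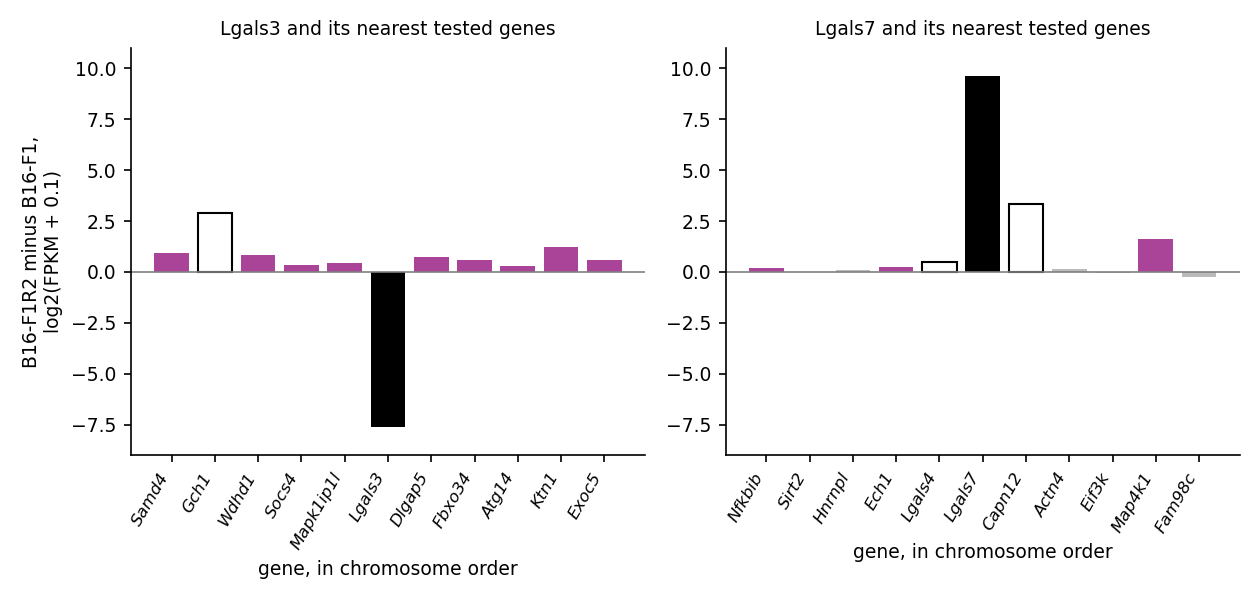
Difference between B16-F1R2 and B16-F1 in log2(FPKM + 0.1) for Lgals3 (left) and Lgals7 (right), in black and not tested, and for the 5 nearest tested genes on each side, in chromosome order, purple where the adjusted p was under 0.05, grey otherwise, and white where the gene met the filter through the metastatic lines only and no call is shown. The neighbours of Lgals3 lie between 0.30 and 2.87 while Lgals3 is at -7.61. The white bars are Gch1 (2.87), Capn12 (3.36) and Lgals4 (0.51).

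In both comparisons with B16-F1, enzymes that build galectin ligands were called in both directions, more often lower than higher. Of 21 genes for N-glycan branching and N-acetyllactosamine synthesis, 17 passed the filter, and 11 of these were lower and 2 higher in B16-F1R2 against B16-F1, beside 27.2% and 28.2% of all genes. The count of 11 ranged from 8 to 11 over the alternatives, and it was 8 with quantile normalization, without a trend, without a filter, and without either library of B16-F1 or replicate 2 of B16-F1R2. The median log2 difference was -0.39 against 0.0046 over all genes tested. In B16-F1R2L against B16-F1, 12 were lower and 4 higher (median -0.23), beside 27.1% and 29.5%. This count of 12 fell to 5 without replicate 1 of B16-F1 and to 5 with each library scaled to the same FPKM sum. Between the metastatic lines, 6 were higher and 1 lower, beside 12.1% and 10.5%, and without replicate 1 of B16-F1R2 or replicate 2 of B16-F1R2L the count of higher genes was 0 and 3.

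Mgat5, which adds the branch that galectin-3 binds best, was measured at 106 and 108 FPKM in B16-F1, 79.5 and 81.0 FPKM in B16-F1R2, and 96.4 and 98.0 FPKM in B16-F1R2L. It was lower in B16-F1R2 than B16-F1 by a log2 difference of -0.42 (SE 0.039, adjusted p = 0.000243). B4galt4, a galactosyltransferase, was at 4.54 and 5.22 FPKM in B16-F1 and fell to 2.02 and 1.93 FPKM in B16-F1R2 (log2 difference -1.26, SE 0.112, adjusted p = 0.000195). Mgat4a, a branching enzyme, was lower too, at -0.88 (SE 0.077, adjusted p = 0.000185). The 2 genes that rose were Gcnt1, which starts branches on O-glycans, by 1.33 (SE 0.123, adjusted p = 0.000229), and B3gnt3, an N-acetylglucosaminyltransferase, by 0.99 (SE 0.077, adjusted p = 0.000111).

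Sialyltransferases cap terminal galactose. Of 8 in the list 7 were tested, and 5 were lower in B16-F1R2 against B16-F1, at a median of -0.45, the other 2 not passing, beside 27.2% of all genes called lower. In B16-F1R2L, 5 were lower as well (median -0.30), beside 27.1%, or 3 with each library scaled to the same FPKM sum. Between the metastatic lines, 3 were higher in B16-F1R2L, beside 12.1%, and none passed without replicate 1 of B16-F1R2 or replicate 2 of B16-F1R2L.

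St6gal1, which adds the sialic acid that hinders galectin-1 binding, was measured at 18.8 and 19.6 FPKM in B16-F1, 4.55 and 4.82 FPKM in B16-F1R2, and 6.20 and 6.82 FPKM in B16-F1R2L. It fell by 2.01 on the log2 scale in B16-F1R2 (SE 0.077, adjusted p = 6.85e-06). The lines did not overlap for St6gal1, and B16-F1R2L lay between the others. St3gal4 was at 76.6 and 80.0 FPKM in B16-F1, 30.3 and 28.7 FPKM in B16-F1R2, and 30.6 and 29.2 FPKM in B16-F1R2L, a log2 difference of -1.41 in B16-F1R2 (SE 0.052, adjusted p = 5.9e-06). St3gal1 and St3gal3 were lower by smaller log2 differences of -0.49 and -0.45 in B16-F1R2 (SE 0.048 and 0.070, adjusted p = 0.000301 and 0.00215).

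**Figure D5:**
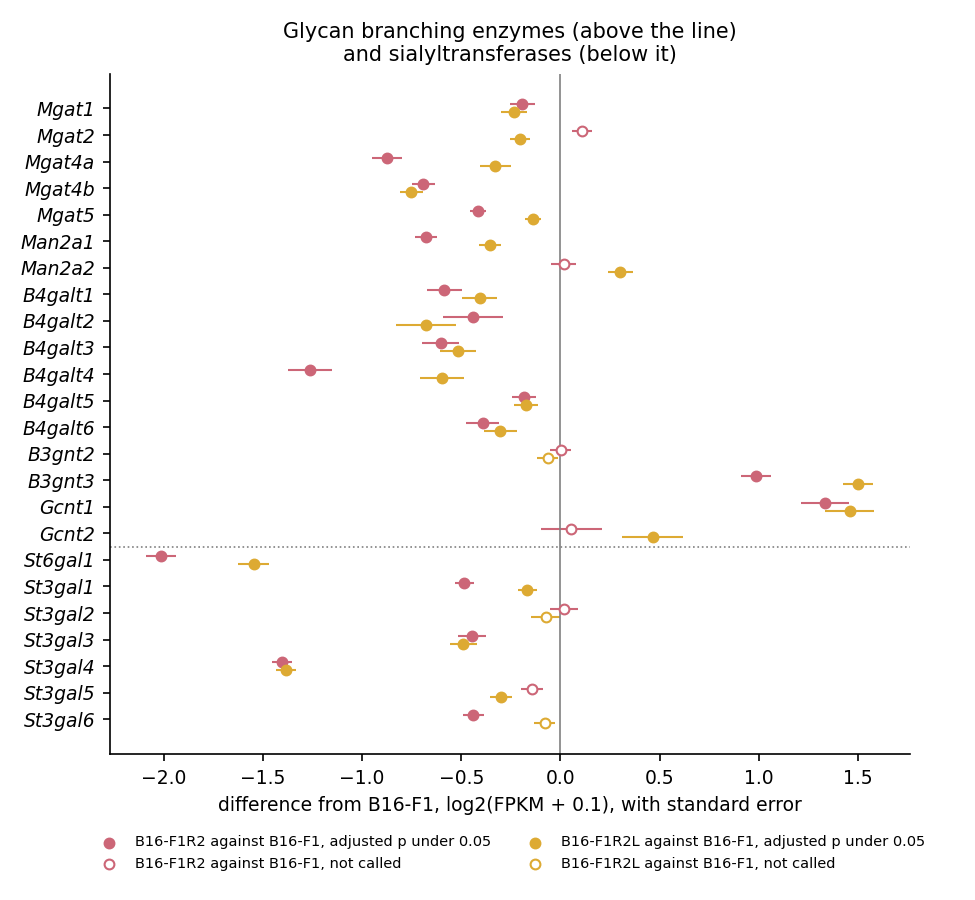
Differences from B16-F1 in log2(FPKM + 0.1), with standard errors, for the tested glycan branching enzymes (above the dotted line) and sialyltransferases (below it) in B16-F1R2 and B16-F1R2L, with filled points where the adjusted p was under 0.05. Most filled points lie left of 0, with St6gal1 at -2.01 and -1.55, and Gcnt1 and B3gnt3 lie furthest right.

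The glycoproteins that carry galectin ligands at the cell surface and in the matrix included genes called in both directions. Of 16 listed, 14 were tested, of which Lamb1 met the filter through B16-F1 only and is not counted. Of the other 13, 3 were higher and 5 lower in B16-F1R2 against B16-F1 (median -0.05), beside 28.2% and 27.2% of all genes. In B16-F1R2L 2 were higher and 6 lower (median -0.08), beside 29.5% and 27.1%, and with Lamb1 the number lower was 7, or 4 when replicate 2 of B16-F1 was left out. With so few genes, these counts are no result about the glycoproteins as a group. Lamb1, which encodes a laminin chain, was at 10.4 FPKM in both libraries of B16-F1, 0.571 and 0.557 FPKM in B16-F1R2, and 0.382 and 0.256 FPKM in B16-F1R2L. Its log2 difference was -3.98 in B16-F1R2, given as a description. Fn1, which encodes the matrix protein fibronectin, rose by 2.57 in B16-F1R2 (SE 0.090, adjusted p = 4.92e-06), from 4.74 and 4.96 to 27.1 and 31.4 FPKM. Itga5, the fibronectin receptor subunit, rose by 0.63 (SE 0.074, adjusted p = 0.000648), and Pdpn, which encodes podoplanin, fell by 0.81 (SE 0.185, adjusted p = 0.0104).

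Interferon-stimulated genes were listed beside Lgals9. Of 20, 19 were tested, of which Psmb8, Irf7, Psmb9 and Mx1 met the filter through the metastatic lines only and are not counted. Of the other 15, 13 were higher and 1 lower in B16-F1R2 against B16-F1 (median 1.13), beside 28.2% and 27.2% of all genes. In B16-F1R2L 14 were higher and 1 lower (median 1.56), beside 29.5% and 27.1%. Psmb8, an immunoproteasome subunit, was at 0.0862 and 0.270 FPKM in B16-F1, 6.65 and 6.82 FPKM in B16-F1R2, and 7.92 and 6.61 FPKM in B16-F1R2L, a log2 difference of 4.70 in B16-F1R2. The log2 difference was 2.67 for Irf7, a transcription factor of the interferon response, and 2.67 for Psmb9. These 3 differences are a description. Ifit1, which reached 1 FPKM in every library, rose by 2.61 (SE 0.122, adjusted p = 1.49e-05). Lgals9 overlapped between the metastatic lines, and any link of its level to these genes was not tested. Between these lines, 11 of the 15 were higher in B16-F1R2L and 1 lower, beside 12.1% and 10.5% of all genes. Over all 19 the count was 11 as well, and it was 4 without replicate 1 and 7 without replicate 2 of B16-F1R2, and 3 without replicate 2 of B16-F1R2L.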

How the data were processed

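RNA from B16-F1, B16-F1R2 and B16-F1R2L cells (2 libraries each) was measured by stranded, polyadenylated RNA sequencing. As the study's methods and the submitters' processing notes describe, the authors aligned reads to mm9 with TopHat2 2.0.10 and Bowtie 1.0.0. The authors deposited 1 table of FPKM values with no pooled replicates. The notes also name Cuffnorm, without its role. The gene annotation behind the FPKM is not given in the sources used here.

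FPKM are not counts, so log2(FPKM + 0.1) was compared with limma (version 3.58.1; R 4.3.3), using lmFit, contrasts.fit and then eBayes with a trend, for the 11379 of 23951 genes that reached 1 FPKM in 2 or more libraries. All 6 libraries entered the fit, without a block. Adjusted p-values are Benjamini-Hochberg over all genes tested, with a threshold of 0.05. This scale understates the change of low genes. Genes that met the filter through B16-F1 only, or through the metastatic lines only, were left out of the list counts in the text, a choice made after their values were seen. An exact permutation test of 2 libraries against 2 cannot give a p under 0.333. The step was tested on simulated data.

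Groups came from the sample labels. The members and lists were chosen with earlier results of these data known. All 7 members were named, up to 4 called genes of a list with the largest difference between B16-F1R2 and B16-F1, the 5 nearest profiles and the 10 nearest tested genes of Lgals3 and Lgals7; Mgat5 was added after its values were seen. Reads per gene were estimated from the lowest FPKM of genes with 1 transcript. Gene positions came from the NCBIM37 annotation by symbol. No exon of another gene overlapped a member's, and blastn 2.17.0 found no copy of at least 50 bases and 96% identity elsewhere in the genome. Matches at or next to a member's own position were left out of that search. Alternatives were other pseudocounts, filters and scalings, no trend, only the libraries compared, a replicate block, and each library left out, 16 for members and lists (15 for Lgals4). Counts over all genes had 1 more, a minimum log2 fold change of 1.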

Additional observations from a re-analysis of the deposited data

How the results depend on the processing

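Every difference of Lgals8 and Lgals9 against B16-F1, of Lgals3 and Lgals7 against B16-F1, and of Lgals3bp against B16-F1 and B16-F1R2 for B16-F1R2L kept its direction under every alternative that was run, and those tested kept their side of the threshold. With a pseudocount of 1 and 0.01, the difference of Lgals3 between B16-F1R2 and B16-F1 was -5.68 and -8.11, and that of Lgals7 was 7.01 and 11.49. In B16-F1R2L against B16-F1 they were -5.24 for Lgals3 with 1, and 6.99 and 11.47 for Lgals7. Lgals3 between the metastatic lines was 0.44 with 1. The pseudocount sets the size of these differences because one side is near 0.

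Quantile normalization turned Lgals4 to -0.00015 (B16-F1R2 against B16-F1), -0.0704 (B16-F1R2L against B16-F1) and -0.0703 (between the metastatic lines), and Lgals1 to 0.0056, Lgals7 to 0.047 and Lgals9 to 0.0403 between the metastatic lines. Scaling to the same FPKM sum turned Lgals7 and Lgals9 there to 0.086 and 0.093. Lgals1 in B16-F1R2L against B16-F1 passed the threshold at 0.217 on that scale and at 0.234 under quantile normalization. The adjusted p of Lgals4 in that comparison missed the threshold at a difference of 0.72 (pseudocount 0.01), 0.63 (median ratios), and 0.648 without a filter, with only the 4 libraries compared and with the replicate block. A filter of 5 FPKM gave no value for Lgals4. The cause was not tested. With 1 library left out, Lgals1 ranged from 0.204 to 0.332 in B16-F1R2 against B16-F1, Lgals4 from 0.431 to 0.865 in B16-F1R2L against B16-F1, and Lgals8, Lgals7 and Lgals9 from 0.372 to 0.446, from -0.133 to 0.088 and from -0.04 to 0.0095 between the metastatic lines.

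Counts of genes past a log2 difference of at least 1 were 819 higher and 328 lower for B16-F1R2, 957 and 259 for B16-F1R2L against B16-F1, and 116 and 24 between the metastatic lines, against 3207 and 3098, 3361 and 3086, and 1378 and 1190 without that minimum. Scaling to the same FPKM sum gave 2043 lower genes in B16-F1R2L against B16-F1, and 2079 higher and 489 lower between the metastatic lines. There, the 4 libraries alone gave 874 and 644, and lower genes numbered 743 without a filter and 650 without a trend. With 1 library left out these counts ran from 297 to 904 higher and from 140 to 991 lower.

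Replicate numbers are shared by the labels of the lines, but same-numbered libraries deviated together only weakly, with correlations of 0.052, -0.10 and 0.079 over genes for the 3 pairs of lines. The replicate block gave 3141 higher and 3040 lower genes in B16-F1R2 against B16-F1 and, of the members' calls, changed only that of Lgals4 in B16-F1R2L (adjusted p = 0.0638). With an estimated 0 to 15.9 reads, the levels of Lgals3 in the metastatic lines and of Lgals7 in B16-F1 have large counting error.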

Other observations

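Some intracellular partners of galectins were called in each direction. Of 9 listed genes 8 were tested, and in B16-F1R2 against B16-F1 2 were higher and 3 lower (median -0.13), beside 28.2% and 27.2% of all genes. Ctnnb1, which encodes β-catenin, was at 588 and 584 FPKM in B16-F1 and fell to 420 and 411 FPKM in B16-F1R2 (log2 difference -0.50, SE 0.045, adjusted p = 0.000201). Bcl2, an inhibitor of apoptosis, fell by 0.37 (SE 0.093, adjusted p = 0.0148). Gemin4, a splicing partner of galectin-1 and galectin-3, rose by 0.44 (SE 0.049, adjusted p = 0.000517). The count of higher genes was 1 without either library of B16-F1 or replicate 2 of B16-F1R2, and that of lower genes was 1 without replicate 1 of B16-F1 or of B16-F1R2. In B16-F1R2L against B16-F1, 2 were higher and 4 lower, beside 29.5% and 27.1%, with 2 lower without replicate 1 of B16-F1 and 2 with each library scaled to the same FPKM sum.

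Targets of p53, of which Lgals7 is a known one in epithelial cells, included genes called in both directions. Of 15 listed genes 12 were tested, and 4 were higher and 3 lower in B16-F1R2 against B16-F1 (median 0.11), beside 28.2% and 27.2% of all genes. Phlda3 rose from 46.3 and 46.6 FPKM to 75.7 and 76.8 (log2 difference 0.71, SE 0.069, adjusted p = 0.000277), and Tnfrsf10b, a death receptor gene, rose by 0.61 (SE 0.137, adjusted p = 0.00984). Trp53inp1 fell by 1.02 (SE 0.115, adjusted p = 0.000527). Sesn2, a stress-induced regulator of growth signalling, was at 11.9 and 10.8 FPKM in B16-F1, 5.49 and 6.16 FPKM in B16-F1R2, and 17.4 and 16.9 FPKM in B16-F1R2L. Sesn2 was thus lowest in B16-F1R2 and highest in B16-F1R2L. The list did not follow it between these lines, where 2 of the 12 were higher in B16-F1R2L and 5 lower. The shares of all genes there were 12.1% and 10.5%. Any link between p53 and the level of Lgals7 was not tested. In B16-F1R2L against B16-F1, 5 were higher and 3 lower, beside 29.5% and 27.1%, with 3 higher without either library of B16-F1R2L, and 1 lower with each library scaled to the same FPKM sum.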
